A study of Homo sapiens with 12 samples.

Results

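The ZNF genes of chromosome 19 encode a large, clustered group of human zinc finger transcription factors. They were taken as the protein-coding genes of RefSeq GRCh38.p14 on chromosome 19 whose symbol is ZNF followed by digits alone, outside the segment around CCNE1 and URI1 that ends at 33 Mb. The segment falls between ZNF254, which ends at 24129968, and ZNF302, which starts at 34675979. This gave 238 genes of the 20033 protein-coding genes on 24 chromosomes, and 1207 other protein-coding genes of chromosome 19 served for comparison. The 2 ZNF genes inside the left-out segment, ZNF507 and ZNF536, and 6 genes with a letter after the digits were not counted. Open chromatin was measured by ATAC-seq, in which a transposase inserts sequencing adapters into accessible DNA. The cells were KYSE150 and KYSE510, established lines of human oesophageal squamous carcinoma. In each line cells silenced for the long non-coding RNA HCP5 were set against control cells, with 3 libraries in each of the 4 groups: KYSE150 control, KYSE150 with HCP5 silenced, KYSE510 control and KYSE510 with HCP5 silenced. Both lines were kept in the same serum-containing medium, and neither how HCP5 was silenced nor what the controls received is given in the labels.

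Most of these genes encode proteins with a KRAB domain at one end and an array of C2H2 zinc fingers at the other. The fingers bind DNA, very often in transposable elements, and the KRAB domain brings TRIM28 (KAP1), which gathers the histone methyltransferase SETDB1, HP1 proteins and other silencing factors. The genes arose by tandem duplication and stand in clusters, and many have CpG-rich promoters that are known to become methylated in carcinomas.

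A gene was counted as having a peak when a listed peak of height 3 or more lay within 1 kb of either of its outermost ends. Height is the number of reads piled up at the top of a peak, as the authors' lists give it. A gene without such a peak may still be accessible elsewhere, at another start or below the listing threshold. Within each library all protein-coding genes were ranked by their tallest peak, with genes without a peak tied at the bottom. The rank is given as a percentile, which needs no scaling of heights between libraries. It still depends on how many genes of the library have a peak. No read numbers were used and the depth is unknown. The libraries of the 2 lines differed in list length: KYSE150 lists held 52869 to 63295 peaks of height 3 or more and KYSE510 lists 104208 to 123109. KYSE150 silenced replicate 3 had the shortest list. In height units, the commonest background of a peak lay between 0.0826 and 0.108 in KYSE150 and between 0.180 and 0.217 in KYSE510. The labels do not say that the libraries of a group came from separate cultures, so p-values measure the spread between these libraries, which may be technical. Of 7 squamous markers, KRT5 and DSG3 had a peak in all 12 libraries, SOX2 only in the 6 KYSE510 libraries, and TP63 in none at its outermost ends. ITGB4 had one in 6 KYSE150 and 5 KYSE510 libraries, KRT6A in 4 and 6, and KRT14 in 0 and 1. Of the markers of other cell types, 1 of 2 liver, 1 of 2 endothelial, 2 of 4 immune and 1 of 4 fibroblast genes had no peak in any library. PDGFRB had one in all 12, APOA1 in 4 KYSE150 and 6 KYSE510 libraries, and COL1A1 in 3 and 6. HCP5's own RNA is not measured by ATAC-seq. The tallest listed peak at its gene ends ranged in height from 0 to 4 over the KYSE150 libraries and from 8 to 23 over those of KYSE510, which does not check the silencing.

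RefSeq promoter windows (250 bases before to 50 after a start, GRCh38.p14) were found for 208 of the 238 genes. The 6 windows printed here stand for the states described in the rest of the results. ZNF761 (chr19:53431734-53432033, plus strand) and ZNF611 (chr19:52734995-52735294, minus strand) had a peak only in KYSE510. ZNF787 (chr19:56121246-56121545, minus strand) and ZNF549 (chr19:57527106-57527405, plus strand) had one only in KYSE150. ZNF382 (chr19:36605063-36605362, plus strand) had none in any library, and ZNF627 (chr19:11597233-11597532, plus strand) had one in all 12. Each is written 5′ to 3′ along the gene, with CpG dinucleotides in capitals.
ZNF761: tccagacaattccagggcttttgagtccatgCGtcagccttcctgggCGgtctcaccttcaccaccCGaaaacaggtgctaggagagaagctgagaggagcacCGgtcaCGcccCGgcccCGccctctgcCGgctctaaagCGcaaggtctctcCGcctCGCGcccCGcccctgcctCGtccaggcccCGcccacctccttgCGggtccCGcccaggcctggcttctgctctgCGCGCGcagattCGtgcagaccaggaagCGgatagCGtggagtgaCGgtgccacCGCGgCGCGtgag
ZNF611: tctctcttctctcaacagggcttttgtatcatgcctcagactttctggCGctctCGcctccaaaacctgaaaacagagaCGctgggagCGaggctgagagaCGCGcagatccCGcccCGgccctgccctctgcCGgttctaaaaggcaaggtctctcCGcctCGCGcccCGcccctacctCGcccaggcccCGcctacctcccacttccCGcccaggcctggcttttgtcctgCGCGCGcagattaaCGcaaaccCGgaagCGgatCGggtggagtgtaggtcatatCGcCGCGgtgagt
ZNF787: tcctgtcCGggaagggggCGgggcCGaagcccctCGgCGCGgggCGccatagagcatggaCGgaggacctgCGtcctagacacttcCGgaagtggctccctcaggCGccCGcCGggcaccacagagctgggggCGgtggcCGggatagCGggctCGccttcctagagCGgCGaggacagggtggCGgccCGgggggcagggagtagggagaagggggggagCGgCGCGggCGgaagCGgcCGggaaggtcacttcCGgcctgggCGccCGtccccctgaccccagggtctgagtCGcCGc
ZNF549: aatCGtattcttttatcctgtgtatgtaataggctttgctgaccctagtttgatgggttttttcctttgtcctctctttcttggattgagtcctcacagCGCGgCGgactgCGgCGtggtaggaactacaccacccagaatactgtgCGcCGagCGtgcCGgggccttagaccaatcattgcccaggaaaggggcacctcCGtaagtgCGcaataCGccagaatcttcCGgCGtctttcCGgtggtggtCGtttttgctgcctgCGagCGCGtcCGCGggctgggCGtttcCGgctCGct
ZNF382: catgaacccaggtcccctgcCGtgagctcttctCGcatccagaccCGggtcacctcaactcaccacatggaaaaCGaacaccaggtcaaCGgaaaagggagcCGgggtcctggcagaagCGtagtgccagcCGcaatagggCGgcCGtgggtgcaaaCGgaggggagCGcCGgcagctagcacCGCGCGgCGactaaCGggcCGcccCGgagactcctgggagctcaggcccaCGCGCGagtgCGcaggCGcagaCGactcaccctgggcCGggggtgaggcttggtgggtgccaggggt
ZNF627: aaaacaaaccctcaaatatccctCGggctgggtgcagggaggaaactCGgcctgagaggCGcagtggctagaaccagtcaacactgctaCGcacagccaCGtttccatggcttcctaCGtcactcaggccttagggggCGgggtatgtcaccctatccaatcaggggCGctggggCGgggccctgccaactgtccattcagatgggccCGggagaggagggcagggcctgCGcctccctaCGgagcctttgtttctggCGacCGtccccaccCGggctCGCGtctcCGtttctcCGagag
The 6 windows hold 28, 26, 32, 25, 27 and 19 CpGs in the order printed. The median over the windows of all protein-coding genes was 22, and the window of ZNF627 lies below it. The window of ZNF382, without a peak, thus lies within the range of those with a peak in one line.

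About 45% of the zinc finger genes had a peak in KYSE150 and about 51% in KYSE510. In KYSE150 the share of the 238 genes was 46.2, 45.4 and 44.1% in the control libraries and 45.4, 45.4 and 42.9% in the silenced ones. In KYSE510 it was 50.8, 49.6 and 50.4% in the control and 49.6, 51.3 and 52.1% in the silenced libraries. Control and silenced libraries overlapped in both lines, while every KYSE510 library lay above every KYSE150 library. The line means were 44.9 ± 1.20% (SD, n = 6) and 50.6 ± 0.985% (SD, n = 6), a difference of 5.74 percentage points (two-sided exact permutation test over libraries, p = 0.00216, adjusted p = 0.0130 over 6 tests). The control libraries alone differed by 5.04 points, for which 3 against 3 libraries cannot give an exact permutation p below 0.1. The difference went with list length: with the 40000 tallest peaks of every library it was 0 points, at 39.7% in both lines (exact permutation p = 1). Line and list length therefore cannot be told apart for the share.

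**Figure D1:**
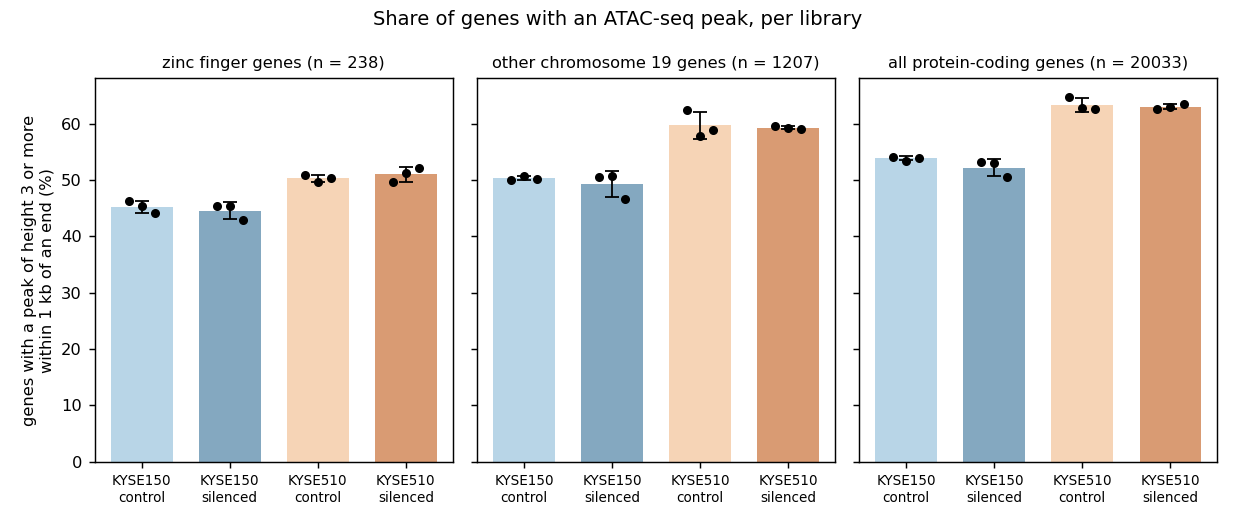
Share of genes with a peak of height 3 or more within 1 kb of a gene end, in percent, for the zinc finger genes, the other genes of chromosome 19 and all protein-coding genes. Bars are means of 3 libraries, error bars the SD and points the libraries; the zinc finger genes lie lowest in every group, and the KYSE510 groups lie above the KYSE150 groups in each panel.

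In all 12 libraries the share of zinc finger genes with a peak was below that of the other genes of the chromosome. Of the 1207 other genes of chromosome 19, 49.8 ± 1.57% had a peak in KYSE150 and 59.5 ± 1.54% in KYSE510 (SD, n = 6 each). Of all protein-coding genes, 53.0 ± 1.31% and 63.2 ± 0.853% did. The zinc finger share minus the share of the other chromosome 19 genes was -4.90 points in KYSE150 and -8.84 points in KYSE510. The difference between the lines in this gap was -3.94 points (two-sided exact permutation test over 6 against 6 libraries, p = 0.00216). With the 40000 tallest peaks of every library the gaps were -2.23 and -1.68 points, and they differed by 0.552 points (exact permutation p = 0.589), so the wider gap did not hold at equal list length.

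Of the peaks counted at the gene ends, nearly all lay at the start. Peaks inside the genes were not counted here. Among the 208 genes with a known strand, 44.7 ± 1.33% had a peak at the start and 3.77 ± 0.562% at the far end in KYSE150, and 49.0 ± 1.33% and 4.81 ± 1.10% in KYSE510 (SD, n = 6 each). Across all genes with a strand, the far end had a peak in 9.41% and 13.4%, and across the other chromosome 19 genes in 13.4% and 18.8%. The far end of a zinc finger gene is the exon that codes for the finger array, a stretch known to carry TRIM28 and H3K9me3 in many cell types. Neither was measured here, and a link to the far-end share was not tested.

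When a peak was present it ranked in the middle to upper part of the library's peaks. The median zinc finger peak stood at percentile 66.9 ± 3.86 among all peaks of height 3 or more of its library in KYSE150 and at 83.9 ± 1.94 in KYSE510 (SD, n = 6 each). For all genes the same values were 75.5 ± 1.29 and 81.4 ± 1.75. The mean gene percentile of the 238 genes, counting those without a peak, was 44.0 ± 0.403 in KYSE150 and 44.2 ± 0.347 in KYSE510, against 50 by construction for all genes. The median percentile was 23.5 ± 0.656 in KYSE150 and 32.1 ± 10.5 in KYSE510, a difference of 8.63 that did not pass the exact permutation test (p = 0.0606, adjusted p = 0.182). It spread widely in KYSE510, from 18.6 to 39.8, because the share with a peak was near 50% there and the middle gene was one without a peak in some libraries.

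After silencing of HCP5 the share of zinc finger genes with a peak moved by less than the spread of the libraries in KYSE150 and by about that spread in KYSE510. In KYSE150 the share moved from 45.2 ± 1.06% to 44.5 ± 1.46% (SD, n = 3 each; exact permutation p = 0.7, adjusted p = 0.840). In KYSE510 it moved from 50.3 ± 0.642% to 51.0 ± 1.28% (exact permutation p = 0.5, adjusted p = 0.750). These are differences of -0.70 and 0.70 points, and without KYSE150 silenced replicate 3 the first was 0.140 points. The difference between the lines in the effect of silencing was 1.40 points (two-sided exact permutation within lines over 400 relabellings, p = 0.34). The median percentile differed by 0.810 in KYSE150 (exact permutation p = 0.1) and by 0.413 in KYSE510 (p = 0.9). In KYSE150 the share with a peak was below 50% in each library, so their median is the tied rank of genes without a peak and its shift says nothing of the zinc finger genes themselves. In neither line did any of the 238 genes go from 3 libraries with a peak under one treatment to 0 under the other. Among all genes this pattern was rare too: 0.165% were lost and 0.0599% gained in KYSE150, and 0.185% lost and 0.165% gained in KYSE510.

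No single zinc finger gene was called for silencing. Ranks turned into normal scores were fitted with limma over every gene with a peak in at least 3 libraries of the fit, and Benjamini-Hochberg adjusted over all of them. A difference of 1 is 1 standard deviation of those scores. In KYSE150, 0 of 10911 genes (0%) were called at an adjusted p under 0.05, and so 0 of the 110 zinc finger genes tested. At an unadjusted p under 0.05 there were 2 zinc finger genes higher and 2 lower, beside 215 and 253 of all genes. In KYSE510, 2 of 12897 genes (0.0155%) and 0 of 124 zinc finger genes were called by limma, with 1 higher and 3 lower at an unadjusted p under 0.05, beside 369 and 328 of all genes. The term for a difference between the lines called 1 of 13525 genes (0.00739%) and 0 of 136 zinc finger genes. At an unadjusted p under 0.05 there were 2 zinc finger genes higher (1.47%) and 5 lower (3.68%), beside 2.97% and 2.54% of all genes. The median difference over the zinc finger genes tested was 0.01 in both lines, against -0.01 over all genes.

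ZNF555, near the short-arm end of the chromosome, came closest. Its start peak (chr19:2840889-2841703 merged over the libraries) had heights of 28, 20 and 16 in the KYSE510 control libraries and 9, 8 and 11 in the silenced ones. These groups did not overlap. In KYSE150 the heights were 12, 12 and 10 in control and 12, 11 and 16 in silenced libraries, which overlapped. The KYSE510 difference was -0.67 ± 0.14 (SE, n = 3 each) with a limma adjusted p of 0.195, and the difference between the lines was -0.95 ± 0.24 with a limma adjusted p of 0.388. Neither passed the threshold. By the size of the p, ZNF845 and ZNF773 came next among the genes lower after silencing in KYSE510, and ZNF256, ZNF615 and ZNF616 were first among those higher. ZNF256 had heights of 16, 14 and 11 in control and 20, 25 and 16 in silenced libraries, so the groups touched at 16. For these 5 genes the limma adjusted p was 0.898 to 0.903.

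In KYSE150 the 3 genes with the smallest p were ZNF317, ZNF264 and ZNF586 among those higher after silencing and ZNF551, ZNF561 and ZNF543 among those lower, each with a limma adjusted p of 0.959. ZNF551 had heights of 23, 14 and 15 in control and 13, 7 and 6 in silenced libraries, which do not overlap. ZNF543 had 17, 11 and 19 against 9, 8 and 9. The tallest peak of ZNF551 lay at the far end in 4 of the 12 libraries, with heights up to 23, and at the start in 8, with heights up to 16. Its heights in both lines therefore mix peaks of both ends. At the start end only its KYSE150 difference was -0.60 (limma adjusted p = 0.953). In KYSE510 neither pair of groups was apart: ZNF551 stood at 16, 8 and 8 against 9, 6 and 13, and ZNF543 at 18, 21 and 15 against 16, 16 and 17. ZNF317 was near the height threshold, with heights of 0, 0 and 4 in KYSE150 control and 5, 3 and 6 in silenced libraries. It had 4 in each KYSE510 control library and 0, 0 and 6 in the silenced ones, and its difference between the lines was -1.10 ± 0.36 with a limma adjusted p of 0.754.

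Along the chromosome, the genes with and without peaks fell into blocks. Of the 238 genes, 79 (33.2%) had a peak in all 12 libraries, against 40.7% of all protein-coding genes. No library had a peak for 90 of them (37.8%), against 22.0% of all genes and 21.1% of the other genes of chromosome 19. The remainder were 5 genes with peaks only in KYSE150, 11 only in KYSE510, and 53 with peaks in some libraries. These shares describe the set and carry no test.

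**Figure D2:**
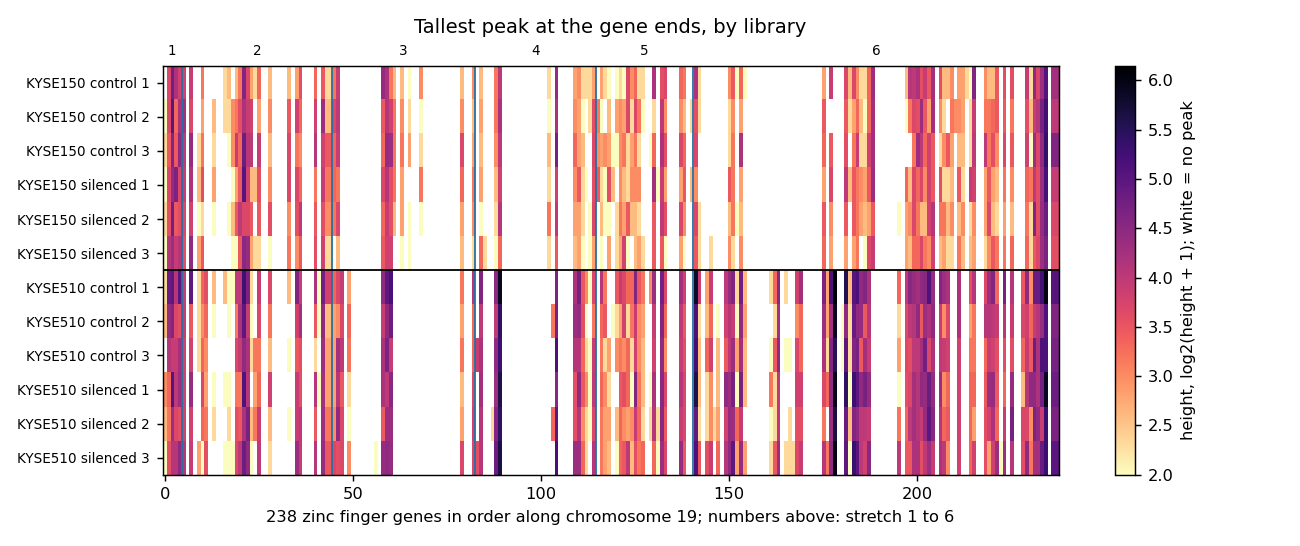
Height of the tallest peak at the ends of each of the 238 zinc finger genes (columns, in order along the chromosome) in the 12 libraries (rows), on a log2(height + 1) colour scale with white for no peak. Vertical lines part the 6 stretches described in the text, numbered from the short-arm end; white blocks of neighbouring genes run through all 12 rows, most of all in stretches 3 and 4.

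The 5 zinc finger genes of the first 7 Mb all had peaks in most libraries, at 96.7% of gene and library pairs in each line. From 7 to 14 Mb, 15 of 40 genes had no peak in any library. From 14 Mb to the left-out segment, 24 of 38 (63.2%) had none, and from 33 to 43 Mb 17 of 32 (53.1%) had none. The other genes of those last stretches had none in 21.0% and 17.1%. From 43 to 50 Mb, 5 of 26 zinc finger genes (19.2%) lacked a peak, and from 50 to 59 Mb 29 of 97 (29.9%), beside 14.5% and 32.6% of the other genes there. The zinc finger genes of this last stretch had the largest difference in share between the lines among the 6 stretches. From 50 to 59 Mb the share with a peak was 45.9% in KYSE150 and 60.0% in KYSE510, whereas from 14 Mb to the left-out segment it was 27.2% and 24.1% and from 33 to 43 Mb 31.8% and 32.8%. The other genes of the last stretch went from 36.1% to 48.4%, and the share of the other genes was higher in KYSE510 in every stretch. The difference between stretches was not tested.

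Runs of neighbouring zinc finger genes without a peak at their outermost ends were long. The longest had 12 genes in a row, from ZNF566 to ZNF420 (chr19:36445119-37130368), and included ZNF382, ZNF567 and ZNF568. The next had 10, from ZNF676 to ZNF91 (chr19:22179089-23395471). ZNF91 is known to repress SVA retrotransposons. Away from its ends, ZNF91 had a peak of up to 8 over the gene, in 6 KYSE150 libraries and 1 KYSE510 library. Further runs of 6 went from ZNF93, known as a repressor of LINE-1 elements, to ZNF626, from ZNF610 to ZNF808, and from ZNF444 to ZNF470. The 9 other protein-coding genes inside the ZNF444 to ZNF470 run, among them ZSCAN5A and ZFP28, also had no peak in any library.

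The count of 90 depends on the use of the outermost ends. Of the 90 genes, 9 had a peak in at least 6 libraries at a RefSeq start away from the outermost ends. For ZNF225, ZNF442, ZNF444, ZNF563 and ZNF749 among them, that start is the only RefSeq start with a promoter window. ZNF558 reached a height of 35 there, ZNF749 31, ZNF225 23, ZNF540 19 and ZNF563 18, each in all 12 libraries. ZNF444 had a peak of up to 20 at its RefSeq start in all 6 KYSE150 libraries and none there in KYSE510. Its neighbour is ZNF787, itself with peaks in KYSE150 alone. Counting peaks anywhere over the gene, 19 of the 90 had one in at least 6 libraries, 21 in 1 to 5 libraries, and 50 in none. ZNF43 and ZNF582 had such a peak in the 6 KYSE150 libraries alone, and ZNF600 and ZNF813 in the 6 KYSE510 libraries alone. The lists also differ in what they hold at low heights: between 36.7 and 63.3% of the 90 genes had a listed peak of height 1 or 2 at an end in a KYSE150 library, against 0 to 2.22% in a KYSE510 library. KYSE510 lists hold no peak of height 1.

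As a set, the genes without a peak at their outermost ends did not have the CpG-poor promoters usual for genes without one. The window used was that of the RefSeq start nearest the outermost start end, at any distance from it. Of the 90 genes, 9 had a peak at a RefSeq start in at least 6 libraries. Some windows counted as without a peak, here and for the motifs, may therefore hold one. Of the 69 genes with a window and a peak in all libraries, 5 had the tallest at the far end in at least 1 library. Some windows counted as with a peak may therefore lack one. A ratio of observed to expected CpG of at least 0.6 was found in 77.4% of the 208 windows of zinc finger genes, 81.2% of the 69 with a peak in all libraries and 72.7% of the 77 without one. Among all protein-coding genes it was found in 65.6%, in 87.1% of those with a peak in all libraries and in only 33.1% of those without. The median window of a zinc finger gene without a peak held 18 CpGs, and that of all genes without a peak 7. At 20 or more CpGs, 30.4% of 112 zinc finger genes had no peak in any library against 9.34% of 8811 genes. At 15 to 19 CpGs it was 44.2% of 43 against 16.4% of 1533. The shares are descriptions, and DNA methylation was not measured here.

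**Figure D3:**
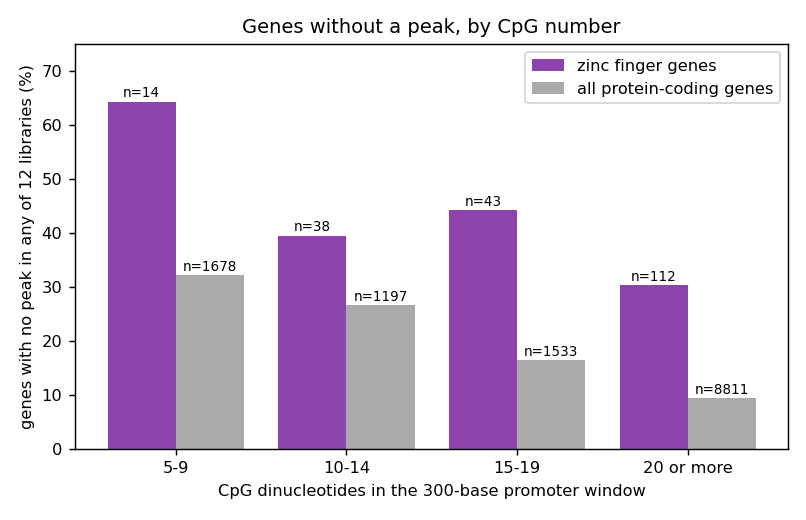
Share of genes without a peak at their outermost ends in any of the 12 libraries (percent), by CpG number in the 300-base promoter window. Bars are given for zinc finger genes and for all protein-coding genes, with the number of genes above each bar. The zinc finger bar is the taller one in every class shown; the class below 5 CpGs, with 1 zinc finger gene, is not drawn.

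Of 12 zinc finger genes named in general knowledge of tumour biology for promoter methylation in carcinomas, 11 had no peak at their ends in any library, against 37.8% of the 238 and 22.0% of all genes. The list was chosen with earlier results of these data known, so these shares are a description and carry no test. A link to methylation was not tested. The 11 were ZNF132, ZNF154, ZNF177, ZNF382, ZNF418, ZNF471, ZNF569, ZNF582, ZNF667, ZNF671 and ZNF677. ZNF582 had a peak of up to 8 elsewhere over the gene in the 6 KYSE150 libraries. The twelfth, ZNF331, an imprinted gene, had a peak of height 3 in KYSE510 control replicates 2 and 3 and in no other library. That peak lay at the far end of the gene and not at its start. ZNF154 and ZNF671 are neighbours, and ZNF382, ZNF569, ZNF582, ZNF667, ZNF471 and ZNF677 each lie in a run of genes without a peak.

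Short motifs in the windows were searched on both strands. The ETS motif CCGGAAG stood in 44.2% of the zinc finger windows and in 14.2% of all 15842 windows of that length. It stood in 41.6% of zinc finger genes without a peak and in 46.4% of those with one in all libraries, with no test of the difference, and among all genes it stood in 22.6% of those with a peak and 5.08% of those without. The CCAAT letters bound by NFY stood in 53.8% against 36.4% of all windows, in 68.1% of zinc finger genes with a peak in all libraries and in 48.1% of those without. YY1's GCCATNTT was found in 13.0% against 7.92%, and SP1's GGGCGG in 68.8% against 58.3%. NRF1's GCGCATGC (3.85% against 4.28%), the CRE TGACGTCA (3.37% against 2.56%), ZNF143's ACTACAATT (1.44% against 0.461%) and ZBTB33's CTCGCGAG (0.962% against 1.53%) were rare in both. Of the windows printed, those of ZNF611, ZNF787 and ZNF549 hold the ETS letters and those of ZNF761, ZNF382 and ZNF627 do not. A match is a stretch of letters and not a bound site.

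Among the 79 genes with a peak in all 12 libraries, ZNF584 ranked highest. Its heights were 32, 37 and 40 in KYSE150 control, 35, 27 and 24 in KYSE150 silenced, 62, 33 and 34 in KYSE510 control and 58, 39 and 38 in KYSE510 silenced libraries. That placed it at percentile 97.2 ± 0.897 in KYSE150 and 96.3 ± 1.66 in KYSE510 (SD, n = 6 each). ZNF627, ZNF146, ZNF837 and ZNF556 followed. ZNF146, which encodes zinc fingers and no KRAB domain, stood at 9 to 17 in KYSE150 and 38 to 59 in KYSE510. ZNF837 stood at 19 to 25 and 14 to 37, and ZNF627 at 12 to 32 and 17 to 37. The lowest of the 79 were ZNF573, ZNF576, ZNF700, ZNF284 and ZNF211, with heights from 3 to 16 in all 12 libraries. The peak of ZNF576 also lies at an end of IRGQ and could belong to either gene. In all, 23 zinc finger genes had a peak within 1 kb of an end of another protein-coding gene, 8 of them another zinc finger gene of the set.

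Zinc finger genes with a peak in every library of one line and none of the other were 5 for KYSE150 (2.1%) and 11 for KYSE510 (4.62%). Among all 20033 genes, 0.200% had the first pattern and 2.78% the second. The 5 were ZNF493, ZNF383, ZNF787, ZNF549 and ZNF530, out of 40 such genes in all. The 11 were ZNF559, ZNF14, ZNF253, ZNF649, ZNF432, ZNF83, ZNF611, ZNF888, ZNF816, ZNF761 and ZNF329, out of 557. These genes were picked by the values that describe them, so no test applies. The second count depends on list length: it was 6 with the 40000 tallest peaks of every library, and it was 7 without genes that share a peak with another gene. The 2.78% of all genes holds for the main setting only and is not set against these counts.

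**Figure D4:**
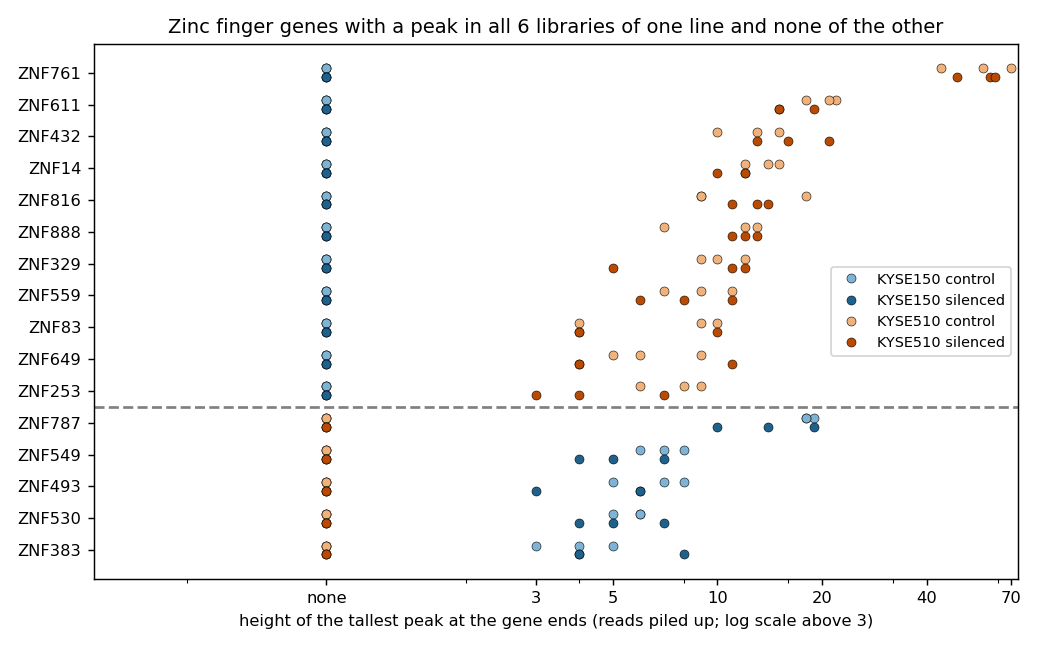
Height of the tallest peak at the ends of the 16 genes with a peak in all 6 libraries of one line and in none of the other, 1 point per library (points of equal height coincide), on an axis that is logarithmic above 3. ZNF761 stands at 44 to 70 in KYSE510, and the KYSE150-only genes other than ZNF787 at 3 to 8.

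ZNF761 had the tallest peak of the group. At chr19:53431279-53432178 its heights were 70, 58 and 44 in KYSE510 control and 61, 49 and 63 in KYSE510 silenced libraries. In KYSE150 no listed peak at its ends was higher than 1. In KYSE510 it stood at percentile 98.5 ± 0.653 of all genes (SD, n = 6), above ZNF584. The readthrough gene ZNF765-ZNF761 spans it and starts at the promoter of ZNF765, which had a peak in 5 KYSE150 and 6 KYSE510 libraries.

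ZNF611, at chr19:52734777-52735437, had heights of 22, 18 and 21 in KYSE510 control and 15, 15 and 19 in silenced libraries. ZNF432, at chr19:52048525-52049507, had 15, 13 and 10, and 21, 13 and 16. In KYSE150 neither had a listed peak higher than 1 at its ends. ZNF14 stood at 10 to 15 in KYSE510, ZNF816 at 9 to 18 and ZNF888 at 7 to 13, while ZNF329, ZNF559, ZNF83, ZNF649 and ZNF253 were lower, at 3 to 12. The last of these touched the threshold of 3 in KYSE510 silenced replicate 2.

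In KYSE150, ZNF787 stood out among its group. At chr19:56120974-56121835 its heights were 19, 18 and 18 in KYSE150 control and 19, 10 and 14 in silenced libraries, and no KYSE510 list had a peak of any height at its ends. ZNF549, at chr19:57527098-57527649, had 7, 8 and 6, and 5, 7 and 4. ZNF530 stood at 4 to 7 and ZNF493 and ZNF383 at 3 to 8, so with a height minimum of 5 only 1 gene, ZNF787, kept the pattern. Control and silenced libraries overlapped for ZNF787 and ZNF549.

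Of the 11 genes of KYSE510, 8 lie from 50 to 59 Mb, and ZNF83, ZNF611, ZNF888, ZNF816 and ZNF761 lie between 52612377 and 53458261. Near them, ZNF701 had a peak in 0 KYSE150 and 5 KYSE510 libraries and ZNF613 in 1 and 6. ZNF600 and ZNF813, next to ZNF611 and ZNF761, had no peak at their ends in either line, but had one over the gene in the 6 KYSE510 libraries and in no KYSE150 library. The pattern did not cover the whole stretch: ZNF841, next to ZNF432, and ZNF845 had peaks in all 12 libraries. Of the 11, 4 share a peak with an overlapping RefSeq gene model: ZNF559, ZNF83 and ZNF816 share their tallest peak, and ZNF761 a low one at its far end. KYSE150 lists still held peaks over most of these genes, counting every height, for example 10 to 18 over ZNF83 and 3 to 7 over ZNF611 per library. Away from the ends, a peak of height 3 or more lay over ZNF253, ZNF559 and ZNF611 in 1 KYSE150 library each. For ZNF329 a peak of height 3 lay at its only RefSeq start with a window in 2 KYSE150 libraries and in 0 KYSE510 libraries. The KYSE510 peaks of ZNF329 counted here lie at its outermost end instead.

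The fit of rank over all 12 libraries called 2586 of 13525 genes (19.1%) higher in KYSE510 and 1985 (14.7%) higher in KYSE150 by limma. Of 136 zinc finger genes tested, 34 (25%) were called higher in KYSE510 and 16 (11.8%) higher in KYSE150. Set against the 19.1% and 14.7% of all genes, the first share is higher and the second lower, with no test of the difference. The 34 hold the 11 genes with peaks in KYSE510 alone, 7 with peaks in some libraries and 16 with peaks in all 12. The 16 hold the 5 genes of KYSE150, 8 with peaks in some libraries and 3 with peaks in all 12. With the 40000 tallest peaks of every library the counts were 27 and 13. The shares of all genes at that setting are not given here, so the comparison with all genes does not extend to it.

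**Figure D5:**
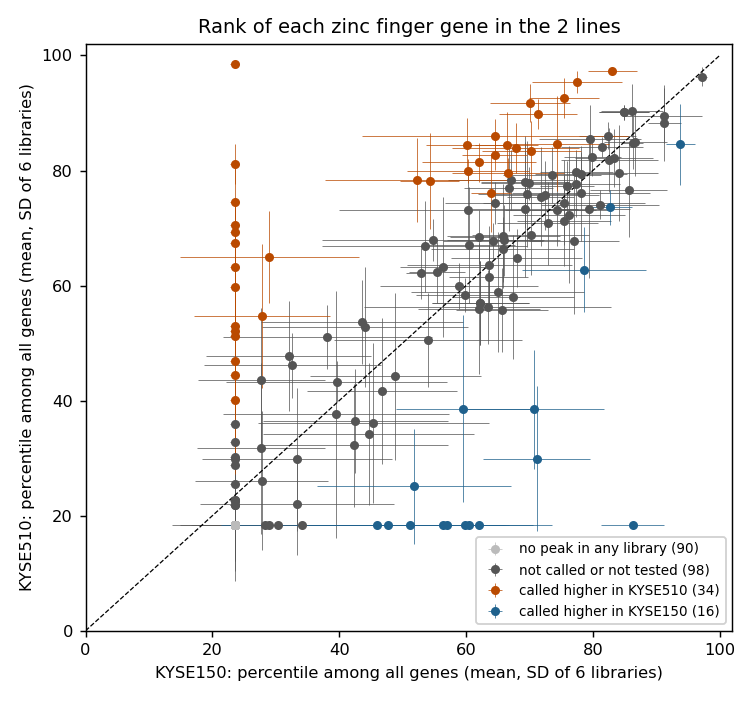
Mean percentile of each of the 238 zinc finger genes among all protein-coding genes in KYSE150 (horizontal) and KYSE510 (vertical), with error bars of 1 SD over 6 libraries; the dashed line marks equal rank. Genes without a peak in a line lie at percentile 23.5 in KYSE150 and 18.4 in KYSE510, and ZNF761 is the point highest above that edge.

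Named here after their values were seen, ZNF146 and ZNF473 had the largest line differences among the genes with a peak in all 12 libraries. ZNF146 went from percentile 83.1 (SD 3.9) in KYSE150 to 97.2 ± 0.683 in KYSE510, a difference of 0.96 ± 0.10 (SE, limma adjusted p = 5.01e-06). ZNF473, whose product acts in histone pre-mRNA processing, had heights of 17, 11, 12, 7, 12 and 10 in KYSE150 and 56, 34, 37, 48, 29 and 34 in KYSE510. Its difference was 0.94 ± 0.13 (limma adjusted p = 4.70e-05), and its peak is shared with VRK3. In the other direction, ZNF556 (-0.50 ± 0.15, limma adjusted p = 0.0161), ZNF551 (-0.50 ± 0.14, adjusted p = 0.0134) and ZNF557 (-0.32 ± 0.10, adjusted p = 0.0222) ranked higher in KYSE150. The rank of ZNF551 rests on peaks at either end of the gene. ZNF557 had heights of 11 to 18 in KYSE150 and 13 to 16 in KYSE510, so its heights overlapped while its rank within the library fell. Genes without a peak tie at percentile 23.5 in KYSE150 and 18.4 in KYSE510, which by itself puts a gene with no peak in either line lower in KYSE510.

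Most genes for the cofactors of KRAB proteins had a peak in every library. Of 14 such genes, 11 had a peak in all 12 libraries, against 40.7% of all genes, and none was called for silencing in either line. This list too was chosen with earlier results of these data known, and the share carries no test. At an end of TRIM28, the cofactor that KRAB domains bind, heights were 20, 25 and 35 in KYSE150 control and 26, 19 and 19 in silenced libraries, and 42, 38 and 34 against 47, 39 and 48 in KYSE510. The treatments overlapped in KYSE150 and in KYSE510. TRIM28 was not called between the lines (0.25 ± 0.13, limma adjusted p = 0.134). SETDB1, the histone H3 lysine methyltransferase of the complex, was called higher in KYSE510 (0.39 ± 0.11, limma adjusted p = 0.0145), with heights of 3 to 7 in KYSE150 and 11 to 17 in KYSE510. Between the lines 1 of the 14 was called higher in KYSE510 and 5 higher in KYSE150, beside 19.1% and 14.7% of all genes tested. The 5 were the HP1 genes CBX1 (-0.31 ± 0.11, limma adjusted p = 0.0386) and CBX3 (-0.56 ± 0.11, adjusted p = 0.00144), CHD3 of the NuRD complex (-0.83 ± 0.16, adjusted p = 0.00108), MPHOSPH8 of the HUSH complex (-0.44 ± 0.14, adjusted p = 0.0229) and the maintenance methyltransferase gene DNMT1 (-0.54 ± 0.14, adjusted p = 0.00912). The heights of each of these 5 genes overlapped between the lines, so the calls rest on rank within the library. CBX1 stood at 4 to 10 in KYSE150 and 5 to 14 in KYSE510, and CBX3 at 17 to 24 and 14 to 24. MPHOSPH8 stood at 11 to 23 and 11 to 24, and DNMT1 at 4 to 9 and 0 to 8. CHD3 was near the height threshold, with a peak in 5 KYSE150 libraries and 1 KYSE510 library and heights of at most 7. UHRF1, which guides DNMT1, had no peak at its outermost ends in any library.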

How the data were processed

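Peak lists of 12 ATAC-seq libraries were used, 1 per library, as the authors deposited them. Per the submitters' processing notes, Trimmomatic 0.36, Bowtie2 2.2.6, Picard 2.8.2, MACS2 2.1.1 and bedtools 2.25.0 were used with GRCh38, with no roles stated. Per the file headers, each peak carries its pileup, a signal in whole numbers that is called height here. Per the file headers, it also carries a fold enrichment, a ratio computed by the authors, and the authors' p-value and FDR. The deposited p-values reach 0.00987, and no scaling between libraries is apparent. Trimming, alignment and duplicate handling decide which reads form a peak. Young zinc finger genes are near copies of each other, so reads that map to several of them may be lost or misplaced, which was not tested.

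Peaks of height 3 or more within 1 kb of either RefSeq gene end were assigned to genes, and each gene's tallest peak was ranked within its library. Shares and percentiles were compared by two-sided exact permutation tests over libraries, adjusted over 6 tests. Single genes were fitted with limma 3.58.1 in R 4.3.3 on normal scores of the rank over all protein-coding genes, with treatment as covariate for the line comparison, and the procedure was tested on simulated data. Python 3.11.15 was used for the remainder. Replicate numbers were taken from the titles and were not used as pairs in the main tests. Correlations between libraries of the same number are given in the last paragraph. The genes and lists were chosen with earlier results of these data known. Genes were named by rule: one-line genes, the 5 highest and 5 lowest with a peak in all libraries, the 3 smallest p in each direction per line, the 2 smallest for the difference between lines, the methylation list, and TRIM28 with called cofactor genes. Protein domains were not analysed here.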

Additional observations from a re-analysis of the deposited data

How the results depend on the processing

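Sequencing depth is unknown, and KYSE510 lists hold more peaks of height 3 or more, so presence of a peak is not comparable between lines at equal sensitivity. The share difference between lines was 1.82 points with an FDR of at most 0.05 (exact permutation p = 0.0563) and 0 points with the 40000 tallest peaks (exact permutation p = 1). Without single libraries it was 5.34 to 6.01. The share after silencing changed sign with the 40000 tallest peaks, to 0.700 points in KYSE150 and -0.700 in KYSE510, and with a height minimum of 5 to -0.280 in KYSE510. Without single libraries it ran from -1.26 to 0.140 in KYSE150, turning positive only without silenced replicate 3, and from 0.140 to 1.40 in KYSE510. The median percentile of the line comparison was 8.63 and turned to -5.28 at a height minimum of 5 (exact permutation p = 0.00216), -5.08 without genes that share a peak (exact permutation p = 0.00216) and -0.835 as mean rank among chromosome 19 genes (exact permutation p = 0.0152), so it has no settled direction. It was 0.556 with the 40000 tallest peaks, 1.30 at the start end only and 3.02 with a window of 500 bp. Without single libraries it was 7.10 to 11.3, and p fell to 0.0303 (exact permutation) without KYSE510 control replicate 2 or silenced replicate 1. After silencing the median ran from 0.383 to 1.05 in KYSE150, with -0.0257 as mean rank among chromosome 19 genes, and from -6.24 to 7.22 in KYSE510 without single libraries, negative without control replicate 2, silenced replicate 2 or silenced replicate 3. At the start end only it was 11.8 in KYSE510 (exact permutation p = 0.1, the smallest possible). Genes of KYSE150 alone numbered 1 at a height minimum of 5 and 5 to 7 without single libraries. Genes of KYSE510 alone numbered 6 with the 40000 tallest peaks, 7 without genes that share a peak and 11 to 12 without single libraries. Without a filter, 106 zinc finger genes ranked higher in KYSE150 by limma, since genes without any peak tie at a rank that differs between lines. In the other settings the calls between lines were 27 to 37 higher in KYSE510 and 12 to 17 higher in KYSE150, and calls for silencing were 0 in every setting run. For the calls between lines and the genes of 1 line alone, shares of all genes in these settings are not given here.

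Libraries of the same number correlated at 0.0148 to 0.0399 across genes, all under 0.1, though each library correlated best with its own number. With replicate number added as a block, the share differed by -0.700 points in KYSE150 and 0.700 in KYSE510 (exact sign-flip permutation p = 0.5 each), 36 and 16 genes were called between lines, and 0 were called for silencing. Alternatives chosen after seeing the data were the other RefSeq starts, symbols ending in a letter, the mean percentile and the rank among chromosome 19 genes.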
